A study of Homo sapiens with 9 samples.

Results

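Cultures of A549, an established line from a human lung adenocarcinoma, were exposed for 96 h to apoptotic extracellular vesicles, which are membrane-enclosed particles released by dying cells. The 2 vesicle preparations differed in the drug that had induced the apoptosis. One was staurosporine, a broad kinase inhibitor (group STS_apoEV, titled sts), and the other was cisplatin, a platinum drug that crosslinks DNA (group DDP_apoEV, titled ddp). The comparison described here sets the 3 STS_apoEV libraries directly against the 3 DDP_apoEV libraries, chosen by their labels, which makes 6 of the 9 libraries of the series. The other 3 received PBS (control) and do not enter the contrast, but are given beside it as the level without vesicles. All 3 groups shared the line and the serum-containing medium. The labels name neither the cells that shed the vesicles nor their dose, and do not say whether residual drug was removed. They also do not say that the replicates were separate cultures, so p-values measure the spread between these libraries, which may be technical. Effects of the vesicles and of any residual drug cannot be told apart in this design. Where a gene is said below to be raised or lowered by a vesicle type, its level in that group lay above or below control.

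Apoptotic vesicles carry proteins, RNA and lipids of the dying cell and expose phosphatidylserine, by which other cells recognise and take them up. Several routes by which a tumour cell responds to its surroundings can be read from RNA. YAP and TAZ are coactivators of the TEAD factors that are active in spread, dividing cells and are held in the cytoplasm by the kinases of the Hippo pathway. NF-kB dimers induce chemokines together with their own inhibitors, and E2F factors induce the genes of DNA synthesis at entry into S phase.

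Promoters of 6 genes that the results below turn on are printed here, because these genes carry the classical recognition letters of those 3 factors near their start. Each run is the 250 bases before the RefSeq start (GRCh38.p14) on the gene's own strand, with matches in capitals, found on either strand. ANKRD1 (chr10:90921088-90921337, minus strand) and CCN2 (chr6:131951373-131951622, minus strand) hold the TEAD letters GGAATG, in ANKRD1 starting 220 and 128 bases before the start and in CCN2 169, 104 and 95 bases before it. CXCL1 (chr4:73869143-73869392), CXCL8 (chr4:73740319-73740568) and CCL20 (chr2:227813592-227813841), all on the plus strand, hold the NF-kB letters GGNNTTTCC, in CCL20 on the opposite strand. MCM6 (chr2:135876444-135876693, minus strand) holds the E2F letters TTTNNCGC at 4 places, in 2 pairs that overlap on opposite strands.
ANKRD1: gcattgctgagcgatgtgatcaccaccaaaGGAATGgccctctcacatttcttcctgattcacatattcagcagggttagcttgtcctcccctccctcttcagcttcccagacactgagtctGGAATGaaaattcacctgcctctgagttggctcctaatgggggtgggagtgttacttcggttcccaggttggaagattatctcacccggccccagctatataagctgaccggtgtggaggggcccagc
CCN2: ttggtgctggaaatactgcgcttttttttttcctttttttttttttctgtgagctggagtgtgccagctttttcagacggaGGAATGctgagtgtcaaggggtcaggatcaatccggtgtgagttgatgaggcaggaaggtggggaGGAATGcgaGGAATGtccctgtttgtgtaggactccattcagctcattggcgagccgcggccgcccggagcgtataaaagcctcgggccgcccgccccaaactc
CXCL1: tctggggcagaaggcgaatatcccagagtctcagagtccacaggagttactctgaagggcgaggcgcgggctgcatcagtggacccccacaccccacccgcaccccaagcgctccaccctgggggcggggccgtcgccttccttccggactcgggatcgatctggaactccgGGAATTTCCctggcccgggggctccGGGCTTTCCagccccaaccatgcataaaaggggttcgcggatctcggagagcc
CXCL8: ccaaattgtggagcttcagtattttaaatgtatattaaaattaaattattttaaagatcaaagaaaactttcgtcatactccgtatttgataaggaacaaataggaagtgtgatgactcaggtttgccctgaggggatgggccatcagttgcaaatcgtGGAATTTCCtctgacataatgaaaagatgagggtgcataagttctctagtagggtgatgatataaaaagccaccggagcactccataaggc
CCL20: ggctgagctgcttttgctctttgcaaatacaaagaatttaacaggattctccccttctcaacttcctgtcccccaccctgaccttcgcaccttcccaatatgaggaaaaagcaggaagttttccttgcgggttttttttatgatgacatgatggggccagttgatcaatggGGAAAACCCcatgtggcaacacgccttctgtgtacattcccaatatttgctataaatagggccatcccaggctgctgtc
MCM6: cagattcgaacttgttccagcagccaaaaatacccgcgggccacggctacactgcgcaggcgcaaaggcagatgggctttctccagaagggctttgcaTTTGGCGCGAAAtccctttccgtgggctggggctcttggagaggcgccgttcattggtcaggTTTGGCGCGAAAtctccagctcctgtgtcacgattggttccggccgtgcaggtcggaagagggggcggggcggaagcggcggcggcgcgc
These letters are a description of the windows and not evidence of binding. GGAATG stood in 11.9% of the 27305 promoters of that length and in 6 of 18 matched YAP and TAZ targets (33.3%). GGNNTTTCC stood in 5.48% of all promoters, in 9 of 14 matched chemokine and cytokine genes (64.3%) and in 10 of 16 NF-kB subunit and feedback genes (62.5%). TTTNNCGC stood in 5.93% of all promoters, in 18 of 34 DNA replication genes (52.9%) and in 3 of 27 mitosis genes (11.1%).

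Library totals were 13799950 to 14816996 counts with STS_apoEV, 15949255 to 16526399 with DDP_apoEV and 14356195 to 15492993 in control. Between one STS_apoEV and one DDP_apoEV library the root mean square log2 difference over the tested genes was 0.705 to 0.764 (9 pairs), against 0.466 to 0.484 within STS_apoEV and 0.444 to 0.483 within DDP_apoEV. DDP_apoEV libraries lay 0.552 to 0.621 from control libraries and STS_apoEV libraries 0.651 to 0.727, DDP_apoEV replicate 3 being the nearest to control (0.552 to 0.569). All 14 A549 markers were detected, with summed levels of 41680 to 43061 CPM, counts scaled to library size, with STS_apoEV, 31811 to 33829 with DDP_apoEV and 42183 to 44749.9 in control, and CDKN2A, which the line has lost, was at 0 in every library. NKX2-1 and SFTPC, also listed as absent from the line, were at or near 0. NKX2-1 held 3 counts in control replicate 3, and SFTPC reached 8 counts, in DDP_apoEV replicate 1. Markers of other cells were low. The 10 leukocyte markers summed to 20.5 to 25.8 CPM with STS_apoEV, 14.2 to 15.7 with DDP_apoEV and 11.4 to 17.3 in control, with CD3E and TYROBP at 0 with both vesicle types. CD14 (log2 fold change 0.56) and ITGAM (0.90) were called higher with STS_apoEV. PTPRC, the pan-leukocyte antigen, was at 0 with DDP_apoEV and in control. A bare signed number after a gene below is its log2 fold change, STS_apoEV over DDP_apoEV. The 7 endothelial markers summed to 31.8 to 39.1, 26.1 to 33.3 and 23.9 to 28.9 CPM in that order of groups, with PECAM1 higher (2.50), a gene that passed the filter on low counts only through the STS_apoEV libraries. The 8 serum and hepatocyte markers summed to 24.0 to 27.2, 11.4 to 19.5 and 25.9 to 30.2 CPM, with APOH higher (0.78) and ALB, APOA1 and TTR at 0 with DDP_apoEV. The 8 fibroblast markers summed to at most 3.99 CPM, COL1A2 and FAP being at 0 with both vesicle types, and the 7 erythroid markers to at most 0.607. Their part in the results was not tested. In such bulk RNA fewer cells expressing a gene and less of its RNA per cell cannot be told apart.

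Of 16947 genes tested with edgeR's quasi-likelihood test, 6721 (39.7%) differed between the vesicle types at an adjusted p under 0.05, 3422 higher with STS_apoEV (20.2%) and 3299 lower (19.5%). A change of at least 2-fold was called for 1481 genes (8.74%), with 1007 higher (5.94%) and 474 lower (2.8%). All libraries of one group lay above all of the other for 47.5% of the genes, 24.3% with STS_apoEV above and 23.2% below. The median log2 fold change over all genes was 0.03. Protein-coding genes were called in 5952 of 12810 cases (46.5%, with 2937 higher and 3015 lower) and long non-coding RNAs in 444 of 2145 (20.7%, with 287 higher and 157 lower). The share over all genes that is set beside gene lists below, 39.7%, is thus under that of protein-coding genes. Against control the same fit called 32.8% of the genes with STS_apoEV (15.9% higher, 16.8% lower) and 15.5% with DDP_apoEV (7.16% higher, 8.32% lower). Those 2 contrasts share the control libraries, so their counts are given side by side and not compared. A gene entered the test with enough counts in any 3 libraries, so one that entered only through the group where it is high was selected toward a difference. Among the called genes this held for 192 of the 3422 higher ones, which passed only through the STS_apoEV libraries, and for 68 of the 3299 lower ones. In 14 called genes the DDP_apoEV libraries held 3 counts or fewer together, and in 5 the STS_apoEV libraries did.

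The largest rises with STS_apoEV were mostly in genes whose DDP_apoEV libraries all lay below control, FOSB being the exception among the 12 largest. TPPP3, a tubulin-binding protein gene (hg38 coordinates here and below, chromosome 16, 67389809 to 67393518, minus strand), stood at 28.1, 35.7 and 32.0 CPM in the STS_apoEV libraries, 1.13, 0.853 and 1.59 in the DDP_apoEV libraries and 6.51, 5.34 and 7.01 in control, a 26.8-fold difference between the vesicle types (log2 fold change 4.74 with SE 0.19 and adjusted p = 3.18e-19). Both vesicle groups lay outside the control range, on opposite sides. F5, coagulation factor V (chromosome 1, 169511951 to 169586588, minus strand), showed the same order, with 36.7, 31.4 and 32.8 CPM with STS_apoEV, 1.06, 1.52 and 2.16 with DDP_apoEV and 5.79, 8.14 and 6.32 in control (log2 fold change 4.41 with SE 0.18 and adjusted p = 1.02e-18). CP, the copper-carrying ferroxidase ceruloplasmin, was at 181, 166 and 190.2 CPM with STS_apoEV and 6.56, 9.57 and 15.5 with DDP_apoEV, where the third library was the highest, and at 73.7, 87.1 and 91.2 in control (log2 fold change 4.09 with SE 0.27 and adjusted p = 2.66e-05). IGFBP1, a secreted binding protein of insulin-like growth factors (chromosome 7, 45888360 to 45893660, plus strand), stood at 114, 114 and 108 CPM against 8.94, 8.23 and 9.72, with 17.5, 16.8 and 20.8 in control (log2 fold change 3.64 with SE 0.10 and adjusted p = 2.64e-23). TCN1, a vitamin B12 carrier, differed by 4.04, CST1, a cysteine protease inhibitor, by 3.71, the actin-severing protein gene SCIN by 3.69 and the tetraspanin gene TSPAN8 by 3.64. NTS, the neuropeptide neurotensin, overlapped control with STS_apoEV, at 12.5, 12.8 and 14.1 CPM against 10.6, 12.2 and 13.6, with 0.875, 0.609 and 1.59 under DDP_apoEV (log2 fold change 3.68 with SE 0.23 and adjusted p = 2.05e-14). FOSB, an AP-1 subunit, was at 46.1, 44.9 and 45.7 CPM with STS_apoEV and 3.13, 2.56 and 6.23 with DDP_apoEV, and the third control library, at 21.5 CPM against 4.75 and 5.13, stood apart (log2 fold change 3.52 with SE 0.66 and adjusted p = 0.00595). KLRC2 (3.82) has near-identical neighbouring copies and ATP8B5P (3.56) is a pseudogene, so reads of related copies make both uncertain.

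Among the 12 largest falls, ANKRD1 was the one that DDP_apoEV had also lowered at an adjusted p under 0.05 against control. TERT, the catalytic subunit of telomerase (chromosome 5, 1253147 to 1295068, minus strand), was at 0.701, 1.01 and 0.704 CPM with STS_apoEV, 10.6, 7.86 and 10.5 with DDP_apoEV and 8.39, 7.04 and 6.73 in control (log2 fold change −3.56 with SE 0.25 and adjusted p = 2.49e-13). GFRA1, a co-receptor of the RET kinase, was at 0.912, 0.405 and 0.282 CPM with STS_apoEV, 5.56, 8.17 and 8.07 with DDP_apoEV and 6.12, 5.81 and 3.61 in control (log2 fold change −3.75 with SE 0.33 and adjusted p = 1.18e-10). In both genes every STS_apoEV library lay below every other library. NPTX1, a secreted neuronal pentraxin, stood at 1.33, 1.75 and 1.13 CPM with STS_apoEV, 17.5, 18.4 and 13.4 with DDP_apoEV and 3.25, 2.46 and 2.71 in control, with the vesicle types on opposite sides of control (log2 fold change −3.54 with SE 0.22 and adjusted p = 2.14e-14). The STS_apoEV libraries overlapped control, and the DDP_apoEV libraries lay above it, for the ubiquitin ligase gene RNF182 (0.771, 0.809 and 1.76 CPM against 7.94, 8.29 and 6.42, control 1.37, 0.616 and 0.763) and the cytokine receptor gene IL31RA (1.54, 0.675 and 0.915 against 5.19, 5.36 and 5.40, control 1.37, 1.37 and 1.11). COL11A1, a fibrillar collagen, differed by −2.93, the phospholipid flippase gene ATP10A by −2.70, the membrane skeleton gene ANK1 by −2.33, the sodium leak channel gene NALCN by −2.22, the oxytocin receptor gene OXTR by −2.19 and the filament-family gene IFFO2 by −2.15. ANKRD1 is described with the YAP and TAZ targets.

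**Figure D1:**
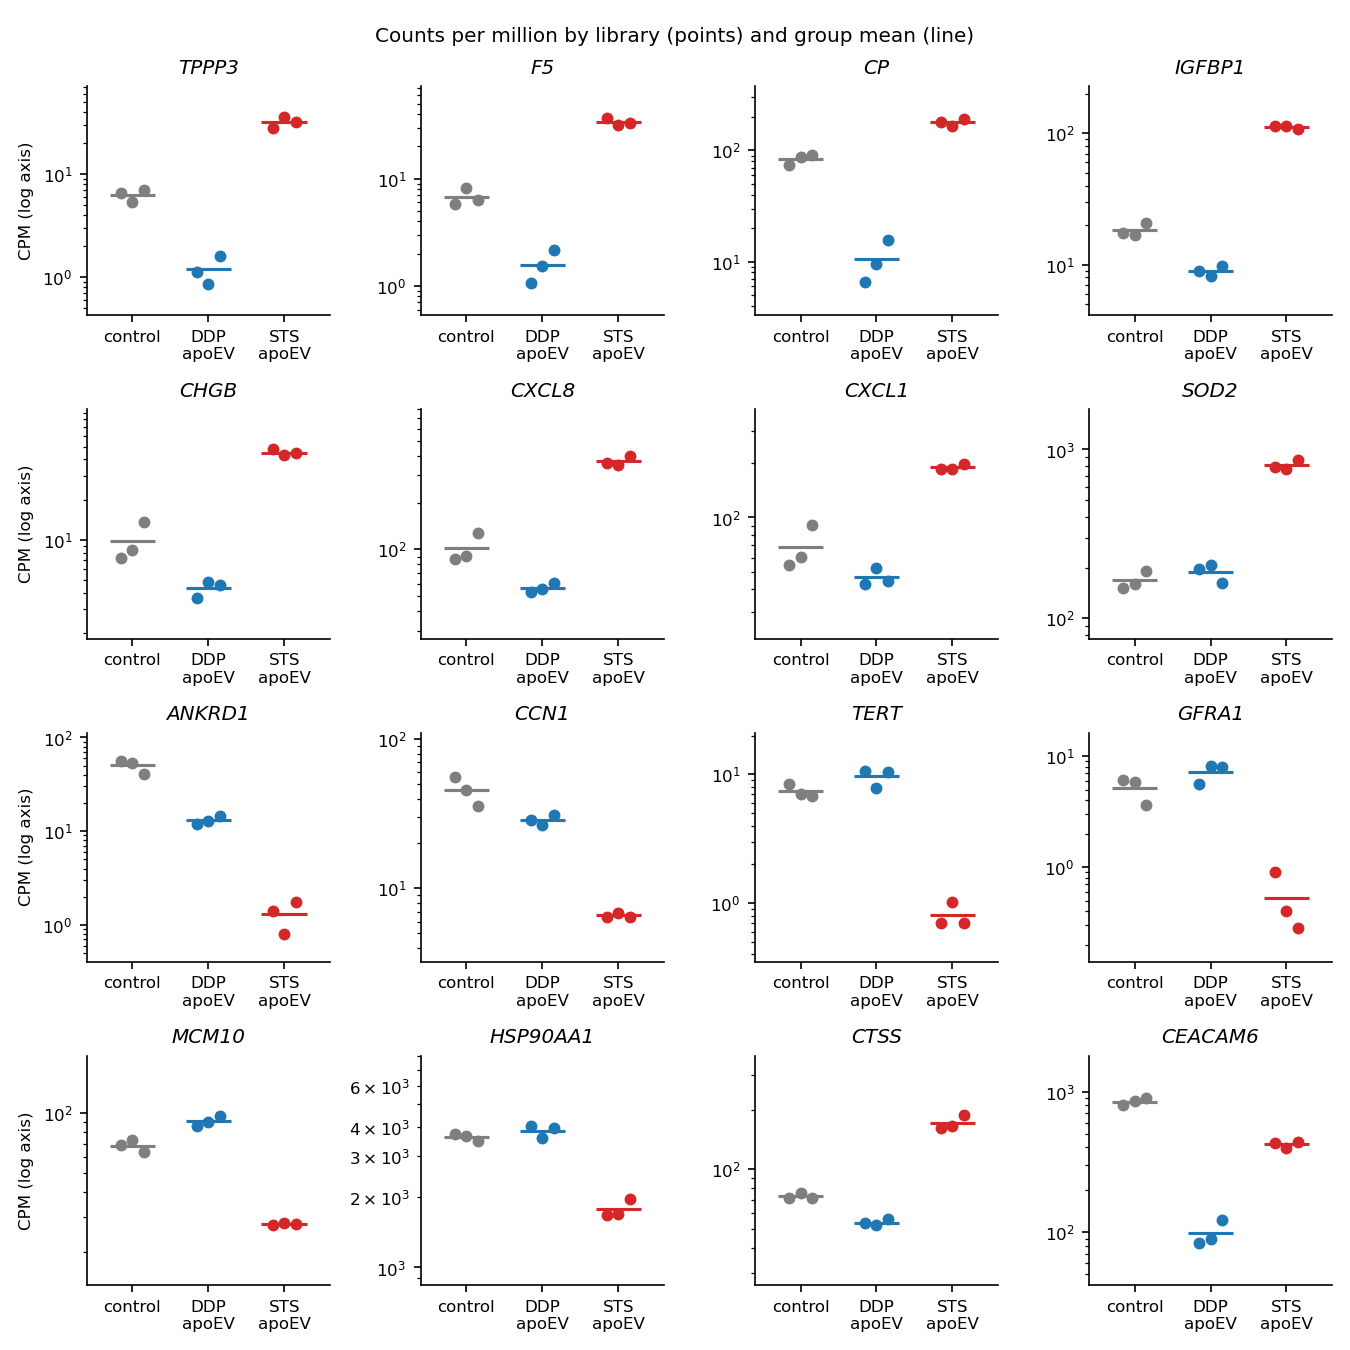
CPM (log axis) of 16 genes in each library, by group, with the group mean as a line. In every panel the 3 STS_apoEV points and the 3 DDP_apoEV points do not overlap, and in TPPP3, F5, CP, IGFBP1, CHGB, CXCL8, CXCL1, MCM10 and CTSS the control points lie between them.

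Targets of YAP and TAZ were lower with STS_apoEV. Of the 23 YAP and TAZ targets tested, 17 fell, 2 rose and 4 did not pass the test, with a median log2 fold change of −0.77, and in 17 every STS_apoEV library lay below every DDP_apoEV library. That order of libraries held for 23.2% of all genes. The called share of the list was 82.6%, against 39.7% of all genes. ANKRD1, a cardiac ankyrin repeat gene and a standard readout of YAP (chromosome 10, 90912096 to 90921087, minus strand), was at 1.40, 0.809 and 1.76 CPM with STS_apoEV, 11.9, 12.9 and 14.4 with DDP_apoEV and 56.5, 53.8 and 40.9 in control (log2 fold change −3.30 with SE 0.20 and adjusted p = 2.11e-13). The 3 groups formed separate steps, with STS_apoEV the lowest. CCN1 and CCN2, secreted matrix-associated signalling proteins, followed the same order. CCN1 was at 6.45, 6.88 and 6.48 CPM with STS_apoEV, 28.7, 26.4 and 30.8 with DDP_apoEV and 55.4, 45.4 and 35.9 in control (log2 fold change −2.11 with SE 0.14 and adjusted p = 1.00e-12). CCN2 was at 3.72, 3.17 and 3.59 CPM with STS_apoEV, 14.1, 14.1 and 14.8 with DDP_apoEV and 34.6, 34.9 and 33.3 in control (log2 fold change −2.04 with SE 0.14 and adjusted p = 2.04e-13). AMOTL2, which binds YAP at junctions and is itself a target, was at 14.6, 11.3 and 13.2 CPM against 49.8, 54.2 and 51.2 with DDP_apoEV, whose libraries lay just under the 62.1, 55.7 and 58.4 CPM of control (log2 fold change −1.99 with SE 0.10 and adjusted p = 1.34e-16). AXL, a receptor tyrosine kinase that also recognises phosphatidylserine through its ligand, was at 43.3, 42.6 and 42.2 CPM with STS_apoEV, 137, 138 and 115 with DDP_apoEV and 90.3, 77.02 and 71.8 in control, so the vesicle types lay on opposite sides of control (log2 fold change −1.61 with SE 0.09 and adjusted p = 1.99e-15). TGFB2, a TGF-beta ligand, differed by −1.77. The list was not uniform, since IGFBP3, a growth factor binding protein, was higher, at 397, 412 and 409 CPM against 94.9, 109 and 144 (log2 fold change 1.81 with SE 0.11 and adjusted p = 6.68e-09), and AMOTL1 was the other riser, a count of 2 that became 1 without STS_apoEV replicate 1. Against control 16 of the 23 were lower and 2 higher with STS_apoEV, and 8 lower and 3 higher with DDP_apoEV.

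Of the Hippo pathway genes around these coactivators a share near the background was called. Of the 17 Hippo pathway core genes tested, 6 fell, 3 rose and 8 did not pass the test, with a median log2 fold change of −0.15. The share called was 52.9%, against 39.7% of all genes. WWC1, the scaffold KIBRA, was lower, at 22.2, 23.2 and 28.6 CPM with STS_apoEV and 105, 96.6 and 97.0 with DDP_apoEV (control 75.4, 68.7 and 70.0; log2 fold change −2.01 with SE 0.092 and adjusted p = 1.25e-17). The tumour suppressor gene NF2 (−1.09) and the scaffold gene WWC2 (−0.91) were lower as well, as were the transcription factor genes TEAD1 (−0.50) and TEAD4 (−0.86). YAP1 itself was higher, at 74.6, 64.7 and 72.1 CPM against 53.5, 55.6 and 54.6 (log2 fold change 0.37 with SE 0.081 and adjusted p = 4.04e-04), and so was VGLL4, which competes with YAP for TEAD (0.54). Actin cytoskeleton genes and targets of the actin-sensing factor SRF were mostly lower. Of the 18 actin cytoskeleton genes and SRF targets tested, 10 fell, 1 rose and 7 did not pass the test, with a median log2 fold change of −0.41. The tropomyosin gene TPM1 was at 161, 163 and 169 CPM against 323, 309 and 326 (log2 fold change −0.96 with SE 0.07 and adjusted p = 8.59e-13), the focal adhesion gene VCL differed by −1.16 and beta-actin, ACTB, by −0.68. Against control the actin list counted 0 higher and 10 lower with STS_apoEV, and 4 higher and 1 lower with DDP_apoEV.

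**Figure D2:**
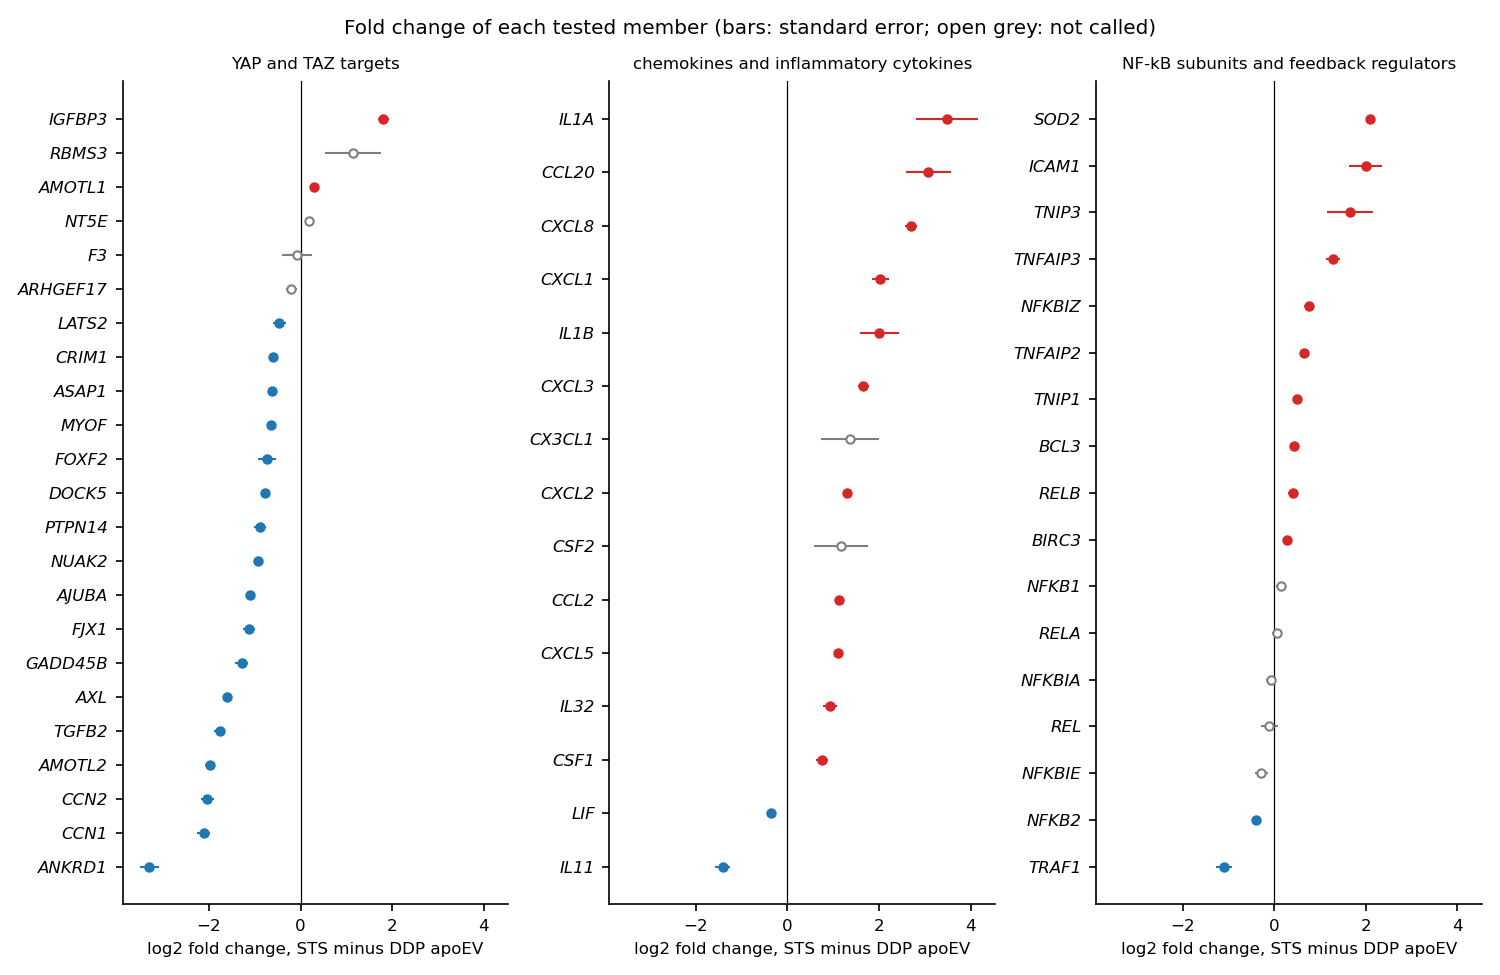
Log2 fold change of STS_apoEV over DDP_apoEV (x axis) with its standard error for each tested member of 3 lists, filled where called. Of the YAP and TAZ targets 17 lie left of 0 and are called, while 11 of 15 chemokine and cytokine genes and 10 of 17 NF-kB genes are called to the right. Among those to the right, IL1A and TNIP3 passed the filter on low counts only through the STS_apoEV libraries.

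Chemokines of neutrophils and monocytes were higher with STS_apoEV. Of the 15 chemokine and inflammatory cytokine genes tested, 11 rose, 2 fell and 2 did not pass the test, with a median log2 fold change of 1.303. CXCL8, interleukin 8 (chromosome 4, 73740519 to 73743716, plus strand), stood at 359, 349 and 401 CPM with STS_apoEV, 53.3, 55.5 and 61.2 with DDP_apoEV and 86.5, 91.1 and 127 in control (log2 fold change 2.71 with SE 0.13 and adjusted p = 3.22e-09). CXCL1, a ligand of the same receptor family, stood at 186, 186 and 198 CPM with STS_apoEV, 42.8, 52.7 and 44.5 with DDP_apoEV and 54.7, 60.3 and 90.4 in control (log2 fold change 2.02 with SE 0.19 and adjusted p = 6.91e-05). CXCL5 was at 1031, 1035 and 1176 CPM with STS_apoEV, 523, 502 and 479 with DDP_apoEV and 521, 551 and 637 in control (log2 fold change 1.11 with SE 0.077 and adjusted p = 2.67e-13). In all 3 genes the STS_apoEV libraries were the highest of the 9. CXCL2 (1.303) and CXCL3 (1.66) shared the direction. CCL20, a ligand of CCR6, differed more but at a low level, 2.87, 1.62 and 3.59 CPM against 0.500, 0.244 and 0.191, and its STS_apoEV libraries overlapped the 1.301, 1.3 and 3.33 CPM of control (log2 fold change 3.08 with SE 0.48 and adjusted p = 5.72e-06). The interleukin 1 genes IL1A (1.54, 1.48 and 0.704 CPM against 0.125, 0.0609 and 0.127, 3.48) and IL1B (3.16, 2.97 and 1.97 against 0.313, 0.853 and 0.826, 2.01) were low as well. IL1A passed the filter on low counts only through the STS_apoEV libraries. The exceptions were cytokines of the interleukin 6 family. IL11 was at 6.52, 7.56 and 4.72 CPM with STS_apoEV and 19.1, 16.4 and 14.7 with DDP_apoEV, with control the lowest at 3.32, 3.69 and 4.03 (log2 fold change −1.41 with SE 0.17 and adjusted p = 4.10e-08), and LIF differed by −0.36. Of the 19 listed genes 4, among them IL6 and TNF, were too low to test.

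Genes of the NF-kB system differed in part. The called share was 70.6%, against 39.7% of all genes. Of the 17 NF-kB subunit and feedback genes tested, 10 rose, 2 fell and 5 did not pass the test, with a median log2 fold change of 0.40. Of the 10 higher members TNIP3 passed the filter on low counts only through the STS_apoEV libraries, so the choice of genes to test favoured its call, which carries little weight. SOD2, the mitochondrial superoxide dismutase and an NF-kB target whose locus overlaps other annotated genes, was at 786, 768 and 865 CPM with STS_apoEV, 197, 208 and 163 with DDP_apoEV and 152, 160.4 and 192 in control (log2 fold change 2.09 with SE 0.093 and adjusted p = 1.97e-14). The DDP_apoEV libraries overlapped control. TNFAIP3, the ubiquitin-editing inhibitor A20, was raised by both vesicle types, to 48.9, 42.6 and 44.6 CPM with STS_apoEV and 20.6, 22.4 and 13.2 with DDP_apoEV from 6.64, 7.73 and 9.30 in control, and differed between them by 1.28 (SE 0.15, adjusted p = 4.09e-06). NFKBIZ, a nuclear co-regulator, differed by 0.75, TNFAIP2 by 0.65 and the adhesion receptor gene ICAM1 by 2.00. The members that were higher with DDP_apoEV were NFKB2 and TRAF1. NFKB2, the p100 precursor, was at 65.6, 69.2 and 62.0 CPM with STS_apoEV and 88.5, 96.4 and 74.97 with DDP_apoEV, both above the 51.8, 46.7 and 49.8 CPM of control (log2 fold change −0.40 with SE 0.087 and adjusted p = 3.77e-04). The adaptor gene TRAF1 was at 6.17, 4.59 and 5.56 against 11.9, 12.6 and 10.6 CPM, with control at 6.64, 5.61 and 5.69 (log2 fold change −1.11 with SE 0.17 and adjusted p = 4.23e-06). Against control 13 of the 17 were higher with STS_apoEV and 8 with DDP_apoEV, and 0 were lower in either.

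Interferon-stimulated genes and antigen presentation genes were also higher with STS_apoEV. Of the 23 interferon-stimulated genes tested, 17 rose, 2 fell and 4 did not pass the test, with a median log2 fold change of 0.99. IFIT3, an antiviral effector, was at 31.1, 30.2 and 28.8 CPM with STS_apoEV, 8.19, 8.29 and 9.21 with DDP_apoEV and 9.11, 13.4 and 9.51 in control (log2 fold change 1.81 with SE 0.14 and adjusted p = 1.45e-12), IFIT2 differed by 1.47 and the signal transducer gene STAT2 by 0.99. The DDP_apoEV and control libraries of IFIT3 overlapped in part. Of the 17 higher members 4, namely BST2, OAS2, IFI44 and IRF7, passed the filter on low counts only through the STS_apoEV libraries. The choice of genes to test thus favoured their calls, which carry little weight. BST2, the virus tether tetherin, was at 0.982, 0.809 and 1.06 CPM against 0.0625, 0.0609 and 0.127 (3.39), OAS2 at 1.40, 1.35 and 2.11 against 0.313, 0 and 0.254 (3.06), and IFI44 differed by 2.28. USP18, which damps interferon receptors (−0.76), and OAS3 (−0.48) were the lower ones. With limma on the deposited FPKM values of genes with a mean of at least 1, which leaves out such low genes, 9 members in place of 17 were higher. Of the 6 MHC class I presentation genes tested, 5 rose, 0 fell and 1 did not pass the test, with a median log2 fold change of 0.79, and the other 9 of the 15 listed genes were too low to test. B2M, the shared light chain, was at 242, 263 and 265 CPM against 140.4, 174 and 166 (log2 fold change 0.68 with SE 0.077 and adjusted p = 1.06e-08), the class I transactivator gene NLRC5 differed by 1.07 and the immunoproteasome gene PSMB10 by 0.97.

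Genes of DNA synthesis were lower with STS_apoEV. Of the 38 DNA replication genes tested, 36 fell, 0 rose and 2 did not pass the test, with a median log2 fold change of −0.78. MCM10, which loads onto the replication origin (chromosome 10, 13161558 to 13211110, plus strand), was at 27.3, 28.1 and 27.6 CPM with STS_apoEV, 86.5, 90.6 and 97.3 with DDP_apoEV and 69.0, 72.8 and 64.1 in control (log2 fold change −1.73 with SE 0.085 and adjusted p = 7.39e-17). Every DDP_apoEV library was above and every STS_apoEV library below the control range. UHRF1, which directs the copying of DNA methylation to the new strand, was at 16.1, 15.2 and 15.8 CPM with STS_apoEV, 49.3, 48.5 and 45.1 with DDP_apoEV and 40.0, 35.1 and 37.4 in control (log2 fold change −1.60 with SE 0.097 and adjusted p = 1.20e-14). The licensing factor gene CDC6 was at 71.1, 71.0 and 76.2 CPM with STS_apoEV, 166, 160.3 and 172 with DDP_apoEV and 140.0, 139 and 130.3 in control (log2 fold change −1.19 with SE 0.075 and adjusted p = 2.85e-14). MCM6, a subunit of the replicative helicase whose promoter is printed above, was at 134, 121 and 138 CPM against 262, 253 and 263 (−0.99), MCM5 differed by −1.01 and the factor gene E2F1 by −0.80. PCNA, the sliding clamp, was at 584, 615 and 646 CPM against 587, 577 and 613 and did not pass (log2 fold change 0.05 with SE 0.068 and adjusted p = 0.567), and CCNE2 was the other member that did not. Against control 32 members were lower and 0 higher with STS_apoEV, while 13 were higher and 0 lower with DDP_apoEV.

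Repair and mitosis lists followed at smaller sizes. Of the 40 DNA damage recognition and repair genes tested, 31 fell, 0 rose and 9 did not pass the test, with a median log2 fold change of −0.49. The mismatch repair gene MSH6 was at 91.8, 78.9 and 91.8 CPM with STS_apoEV, 188, 194 and 195 with DDP_apoEV and 157, 159.5 and 142 in control (log2 fold change −1.14 with SE 0.078 and adjusted p = 1.86e-13), the checkpoint adaptor gene CLSPN differed by −1.15 and the recombination gene XRCC2 by −1.07. Of the 33 mitosis genes tested, 24 fell, 0 rose and 9 did not pass the test, with a median log2 fold change of −0.31. CDC20, an activator of the anaphase-promoting complex, was at 33.0, 38.2 and 37.9 CPM with STS_apoEV, 73.0, 73.6 and 63.6 with DDP_apoEV and 69.8, 56.3 and 62.4 in control (log2 fold change −0.95 with SE 0.093 and adjusted p = 5.54e-10). For the spindle gene TPX2 (154, 146 and 164 CPM with STS_apoEV, 251, 245 and 249.7 with DDP_apoEV and 256, 248 and 242 in control, −0.69), the mitotic kinase gene AURKA (−0.57) and the proliferation marker MKI67 (177, 156 and 163 CPM with STS_apoEV, 230.3, 277 and 242 with DDP_apoEV and 248, 265 and 236 in control, −0.60) the DDP_apoEV libraries overlapped control. FOXM1, a factor of mitotic genes, differed by −0.58. Against control the mitosis list counted 27 lower with STS_apoEV, and 8 lower and 1 higher with DDP_apoEV. Of the 12 replication-dependent histone genes tested, 5 rose, 2 fell and 5 did not pass the test, with a median log2 fold change of 0.30, among them H1-2 (0.67) and H2BC21 (0.58) higher and H2BC5 (−0.49) lower, in a family of near-identical copies. The called share of this list was 58.3%, against 39.7% of all genes.

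**Figure D3:**
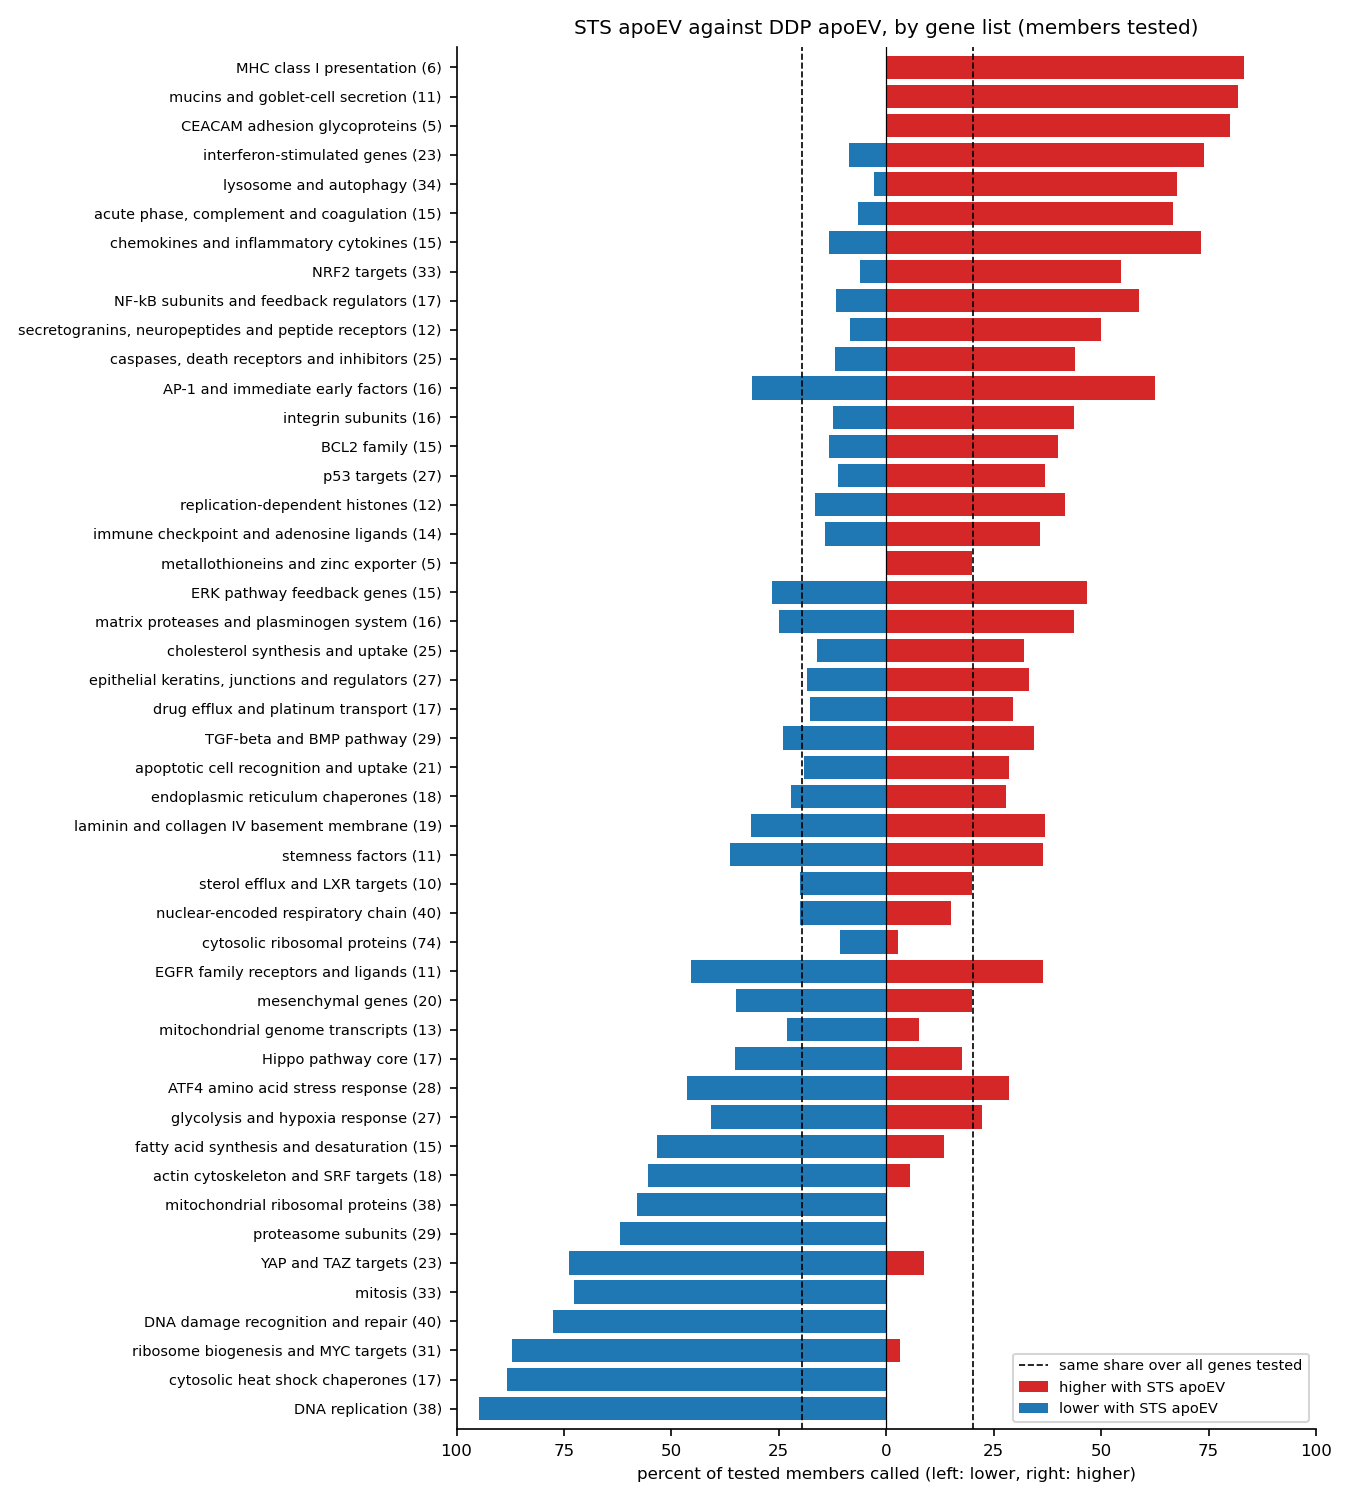
Share of the tested members of each of 47 gene lists called higher (right) or lower (left) with STS_apoEV than with DDP_apoEV, in percent, with the shares over all genes (20.2% and 19.5%) dashed and the number tested in brackets. DNA replication, heat shock chaperones and ribosome biogenesis stand at the lower end, and MHC class I, mucin and CEACAM lists, which are small, at the upper end.

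Genes of ribosome assembly and protein folding were lower with STS_apoEV. Of the 31 ribosome biogenesis genes and MYC targets tested, 27 fell, 1 rose and 3 did not pass the test, with a median log2 fold change of −0.59, and the single rise was lost in most of the 19 other settings. The nucleolar gene NOLC1 was at 126, 112 and 129.6 CPM with STS_apoEV, 266, 274 and 267 with DDP_apoEV and 185, 195 and 171 in control (log2 fold change −1.13 with SE 0.075 and adjusted p = 1.03e-13), with the 3 groups apart. WDR43 (−0.84) and the pseudouridine synthase gene DKC1 (−0.86) followed. MYC, the factor that drives this programme, was at 47.3, 50.2 and 49.3 CPM against 83.0, 80.4 and 70.1, with control at 64.6, 55.5 and 60.5 (log2 fold change −0.67 with SE 0.085 and adjusted p = 1.13e-07). Against control 20 of the 31 were higher and 0 lower with DDP_apoEV, and 18 lower and 1 higher with STS_apoEV. Of the 17 cytosolic heat shock chaperone genes tested, 15 fell, 0 rose and 2 did not pass the test, with a median log2 fold change of −0.66. HSP90AA1, the inducible HSP90, was at 1682, 1696 and 1966 CPM with STS_apoEV, 4027, 3575 and 3951 with DDP_apoEV and 3716, 3635 and 3464 in control (log2 fold change −1.11 with SE 0.073 and adjusted p = 8.49e-14). Its co-chaperones FKBP4 (−1.27) and STIP1 (−0.97), the HSC70 gene HSPA8 (−0.68) and the mitochondrial chaperonin gene HSPD1 (−0.71) were lower too, and in each of these genes all STS_apoEV libraries lay below control.

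Ribosomal and mitochondrial gene lists differed by small amounts. The called share was 57.9% of the mitochondrial ribosomal protein list and 62.1% of the proteasome list, against 39.7% of all genes. Of the 74 cytosolic ribosomal protein genes tested, 8 fell, 2 rose and 64 did not pass the test, with a median log2 fold change of −0.07, a share under that of all genes, and the 8 became 4 without DDP_apoEV replicate 1 and 5 without STS_apoEV replicate 1 or with upper-quartile factors, while the 2 became 0 or 1 in most of the 19 other settings. RPL26 (−0.38), RPSA (−0.27) and RPS2 (−0.28), which have many processed copies, were among them. Of the 38 mitochondrial ribosomal protein genes tested, 22 fell, 0 rose and 16 did not pass the test, with a median log2 fold change of −0.27, such as MRPL18 (72.7, 73.8 and 83.0 CPM against 117, 105 and 117, −0.56), MRPL3 (−0.52) and MRPL19 (−0.53). Of the 40 nuclear-encoded respiratory chain genes tested, 8 fell, 6 rose and 26 did not pass the test, with a median log2 fold change of −0.03, with 10 in place of 6 higher without STS_apoEV replicate 1 and 0 with limma on log2(FPKM + 1) and no filter. The called share was 35%, under the 39.7% of all genes. The complex II gene SDHB (−0.56), the ATP synthase gene ATP5F1B (−0.37) and the cytochrome gene CYC1 (−0.42) fell. Of the 13 mitochondrial genome transcripts tested, 3 fell, 1 rose and 9 did not pass the test, with a median log2 fold change of 0.04. The called share was 30.8%, also under that of all genes. MT-ND5 (−0.19) and MT-ND4L (−0.38) each lost the call without DDP_apoEV replicate 3 (adjusted p = 0.102 and 0.0576) and without STS_apoEV replicate 2 (0.0567 and 0.150), and MT-ND4L also without STS_apoEV replicate 1 (0.119). For MT-ATP8 (0.36) the libraries of the vesicle types overlapped, and of the fits with 1 library left out only that without DDP_apoEV replicate 1 kept the call (0.57). The value was 0.22 without DDP_apoEV replicate 2. Of the 29 proteasome subunit genes tested, 18 fell, 0 rose and 11 did not pass the test, with a median log2 fold change of −0.21, led by the regulatory subunits PSMD2 (153, 161 and 169 CPM against 247, 265 and 233, −0.63), PSMD11 (−0.43) and PSMD1 (−0.42), and the 18 became 10 without DDP_apoEV replicate 1 and 9 without STS_apoEV replicate 1.

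Lysosome and autophagy genes were higher with STS_apoEV. Of the 34 lysosome and autophagy genes tested, 23 rose, 1 fell and 10 did not pass the test, with a median log2 fold change of 0.40. CTSS, the protease cathepsin S, was at 161, 164 and 187 CPM with STS_apoEV, 53.5, 52.1 and 56.0 with DDP_apoEV and 71.4, 76.0 and 71.9 in control (log2 fold change 1.66 with SE 0.08 and adjusted p = 3.93e-17). WIPI1, which marks forming autophagosomes, was at 47.1, 46.5 and 47.9 CPM with STS_apoEV, 17.4, 17.4 and 18.6 with DDP_apoEV and 15.4, 17.1 and 16.9 in control (log2 fold change 1.41 with SE 0.098 and adjusted p = 2.66e-13). GABARAPL1, which is conjugated to their membrane, was at 56.8, 51.4 and 62.2 CPM with STS_apoEV, 16.0, 20.1 and 18.8 with DDP_apoEV and 22.9, 18.5 and 25.1 in control (log2 fold change 1.63 with SE 0.11 and adjusted p = 3.04e-13). In these genes all STS_apoEV libraries lay above the other 6, and against control DDP_apoEV was lower for CTSS and did not pass for WIPI1 and GABARAPL1. Cathepsin D, CTSD, differed by 1.17. NPC1, the exporter of cholesterol from lysosomes, was the 1 member that fell, at 48.3, 39.9 and 41.1 CPM against 103, 126 and 76.5, and here STS_apoEV overlapped the 42.9, 44.6 and 45.8 CPM of control (log2 fold change −1.24 with SE 0.16 and adjusted p = 1.82e-04). Against control 20 of the 34 were higher with STS_apoEV and 0 lower, and 2 higher and 9 lower with DDP_apoEV.

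Sterol genes were called about as often as all genes (39.7%). The called share of the fatty acid list was 66.7%. Of the 25 cholesterol synthesis and uptake genes tested, 8 rose, 4 fell and 13 did not pass the test, with a median log2 fold change of 0.05, a called share of 48.0%. The 8 became 5 without DDP_apoEV replicate 3. In the limma fit of log2(FPKM + 1) with no filter they became 2. Both vesicle types lay below control in HMGCS1, an early enzyme of the pathway, at 228, 223 and 245 and 300.0, 289 and 306 CPM against 511, 516 and 433, and differed by −0.36. ACAT2 differed by −0.65, TM7SF2 by 0.73, the sensor gene INSIG1 by 0.35 and the master factor gene SREBF2 by 0.39. Of the 10 sterol efflux genes and LXR targets tested, 2 rose, 2 fell and 6 did not pass the test, with a median log2 fold change of −0.25. The called share was 40.0%. ABCA1, the cholesterol efflux pump, was raised by both, to 14.4, 12.5 and 13.2 CPM with STS_apoEV and 29.1, 30.2 and 20.2 with DDP_apoEV from 5.21, 5.13 and 4.72, with the groups apart (log2 fold change −0.99 with SE 0.14 and adjusted p = 4.86e-07), while SMPDL3A (1.32) and the receptor gene NR1H2 (0.44) had the opposite sign. Of the 15 fatty acid synthesis and desaturation genes tested, 8 fell, 2 rose and 5 did not pass the test, with a median log2 fold change of −0.22, and the 2 became 1 without DDP_apoEV replicate 1, DDP_apoEV replicate 3 or STS_apoEV replicate 1. With limma on log2(FPKM + 1) and no filter the 2 became 0 and the 8 became 5. ACLY, which makes cytosolic acetyl-CoA, was at 217, 226 and 207 CPM against 398, 528 and 397, with control at 328, 318 and 336 (log2 fold change −1.03 with SE 0.087 and adjusted p = 4.32e-10), and the desaturase gene SCD (−0.66), ACSL3 (−0.35) and FASN (−0.46) followed.

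Mucin and secretion genes were higher with STS_apoEV. Of the 11 mucin and goblet-cell secretion genes tested, 9 rose, 0 fell and 2 did not pass the test, with a median log2 fold change of 1.51, and the other 7 listed genes were too low to test. MUC5B, a gel-forming airway mucin, was at 233, 197 and 169 CPM with STS_apoEV, 54.5, 76.4 and 79.6 with DDP_apoEV and 201, 231 and 264 in control (log2 fold change 1.51 with SE 0.19 and adjusted p = 6.69e-04). AGR2, which folds mucins, was at 601, 672 and 685 CPM with STS_apoEV, 234, 242 and 340.3 with DDP_apoEV and 663, 650.1 and 699 in control (log2 fold change 1.26 with SE 0.12 and adjusted p = 6.27e-06). In both the STS_apoEV libraries overlapped control and the DDP_apoEV libraries lay below it. MUC13 (1.29), TFF1 (2.04), MUC1 (1.54) and CREB3L1 (2.46) were higher as well. Of the 9 higher members CREB3L1 and MUC16 passed the filter on low counts only through the STS_apoEV libraries. MUC16 was at 2.10, 2.70 and 1.69 CPM against 0, 0 and 0.191 CPM, only 3 counts, so no fold is given. Against control 5 of the 11 were higher and 1 lower with STS_apoEV, and 7 lower with DDP_apoEV. Of the 5 CEACAM genes tested, 4 rose, 0 fell and 1 did not pass the test, with a median log2 fold change of 2.10. The 4 became 2 in each of the 3 limma fits of FPKM values. CEACAM6 (chromosome 19, 41750977 to 41772211, plus strand) was at 429, 399 and 437 CPM with STS_apoEV, 84.2, 88.9 and 121 with DDP_apoEV and 797, 852 and 898 in control, so both vesicle groups were below control, DDP_apoEV further (log2 fold change 2.10 with SE 0.11 and adjusted p = 2.54e-10). CEACAM5 (2.32) and CEACAM1 (1.85) shared the direction, in a family whose similar sequences can share reads.

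Acute phase, complement and coagulation genes, which A549 cells express in part, were higher with STS_apoEV. Of the 15 acute phase, complement and coagulation genes tested, 10 rose, 1 fell and 4 did not pass the test, with a median log2 fold change of 1.33, and the 1 became 2 without STS_apoEV replicate 2. C3, the central complement protein, was at 99.8, 104 and 98.8 CPM with STS_apoEV, 12.6, 24.3 and 20.6 with DDP_apoEV and 17.96, 12.9 and 20.4 in control (log2 fold change 2.39 with SE 0.24 and adjusted p = 2.09e-04). The complement protease gene C1S was at 249.8, 261 and 267 CPM with STS_apoEV, 78.1, 89.2 and 91.4 with DDP_apoEV and 61.3, 64.5 and 64.3 in control (log2 fold change 1.59 with SE 0.077 and adjusted p = 3.93e-17). LCN2, an iron-binding antimicrobial protein, was at 78.5, 96.1 and 92.2 CPM with STS_apoEV, 8.19, 7.31 and 16.4 with DDP_apoEV and 53.03, 52.4 and 63.3 in control (log2 fold change 3.07 with SE 0.29 and adjusted p = 1.91e-04). The DDP_apoEV libraries overlapped control for C3 and lay below it for LCN2. The fibrinogen gene FGG (4.91, 4.59 and 4.43 CPM against 0.563, 0.914 and 1.65, control 8.07, 7.25 and 9.09) and FGL1 (1.33) were higher, and C5 was lower (−0.60).

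Epithelial and mesenchymal genes were called at shares not far from that of all genes (39.7%). Of the 27 epithelial keratin, junction and regulator genes tested, 9 rose, 5 fell and 13 did not pass the test, with a median log2 fold change of −0.02. The called share was 51.9%. TJP3, a tight junction scaffold, was at 19.6, 20.1 and 18.3 CPM with STS_apoEV, 3.81, 4.39 and 4.64 with DDP_apoEV and 16.3, 13.3 and 16.4 in control (log2 fold change 2.17 with SE 0.15 and adjusted p = 1.46e-13). ELF3, an epithelial factor, was at 241, 243 and 229 CPM with STS_apoEV, 89.2, 97.3 and 97.9 with DDP_apoEV and 206, 207 and 235 in control (log2 fold change 1.33 with SE 0.076 and adjusted p = 2.67e-15), and the claudin gene CLDN2 differed by 1.92. KRT80, a type II keratin, went the other way, at 19.0, 17.7 and 17.5 CPM with STS_apoEV, 70.9, 72.1 and 69.4 with DDP_apoEV and 111, 100.7 and 89.1 in control (log2 fold change −1.97 with SE 0.093 and adjusted p = 2.74e-17), as did CLDN1 (−1.08) and KRT7 (−0.85). KRT8 was higher (0.40), as was CLDN4 (1.02). CDH1, epithelial cadherin, was at 8.98, 10.8 and 8.09 CPM against 7.69, 14.2 and 11.8 and did not pass (log2 fold change −0.27 with SE 0.18 and adjusted p = 0.241), although without DDP_apoEV replicate 1, its lowest, it did (−0.49, adjusted p = 0.0180). Of the 20 mesenchymal genes tested, 7 fell, 4 rose and 9 did not pass the test, with a median log2 fold change of −0.24. The called share was 55.0%. Of the 7 lower members THY1 passed the filter on low counts only through the DDP_apoEV libraries, so the choice of genes to test favoured its call, which carries little weight. The 7 became 4 without DDP_apoEV replicate 2 or STS_apoEV replicate 1. With limma on log2(FPKM + 1) 2 were higher and 4 lower, and 1 and 3 without a filter. COL5A1 (−0.81) and CDH2 (−0.51) were lower, and FN1, fibronectin, at 249, 209.7 and 218 CPM against 55.6, 96.7 and 93.4 (1.46), and S100A4 (0.32) were higher. VIM, vimentin, was at 356, 389.8 and 389.8 CPM against 461, 476 and 401 (log2 fold change −0.24 with SE 0.075 and adjusted p = 0.0117), a call lost without DDP_apoEV replicate 1 (0.0529), DDP_apoEV replicate 2 (0.0589) or STS_apoEV replicate 1 (0.0554).

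Matrix contact lists held called members of either sign. The called share was 68.4% of the laminin and collagen IV list and 68.75% of the matrix protease list, against 39.7% of all genes. Of the 16 integrin subunit genes tested, 7 rose, 2 fell and 7 did not pass the test, with a median log2 fold change of 0.37. The called share was 56.25%, against 39.7% of all genes. With limma on log2(FPKM + 1) 3 were higher and 1 lower. The higher included ITGB8 (1.48), ITGB4 (0.81) and ITGA10 (1.45). Of the 19 laminin and collagen IV genes tested, 7 rose, 6 fell and 6 did not pass the test, with a median log2 fold change of 0.04. The 6 became 3 with limma on log2(FPKM + 1) and no filter. LAMB3 was at 41.4, 39.3 and 33.8 CPM with STS_apoEV, 10.9, 11.9 and 12.01 with DDP_apoEV and 24.0, 15.3 and 25.7 in control (log2 fold change 1.72 with SE 0.15 and adjusted p = 7.64e-09). LAMA3, whose product joins it in one laminin trimer, was at 41.9, 30.6 and 36.2 CPM with STS_apoEV, 72.0, 83.4 and 68.2 with DDP_apoEV and 32.2, 32.7 and 29.5 in control (log2 fold change −1.04 with SE 0.1 and adjusted p = 7.46e-10). The partner chains therefore differed in opposite directions. LAMA4 was at 6.94, 5.94 and 6.55 CPM against 1.25, 1.28 and 1.14 (2.39) and LAMA2 differed by 1.84. Of the collagen IV chains COL4A3 was higher, at 22.6, 20.6 and 25.9 CPM against 6.31, 7.37 and 7.18 (1.73), and COL4A1 (−1.62) and COL4A2 (−0.71), which share a promoter region, were lower. Of the 16 matrix protease and plasminogen system genes tested, 7 rose, 4 fell and 5 did not pass the test, with a median log2 fold change of 0.25, the 4 becoming 2 without STS_apoEV replicate 2 and in each limma fit of FPKM values. The matrilysin gene MMP7 was at 192, 208 and 219 CPM against 86.4, 78.0 and 96.3, both below the 279, 270.2 and 299 CPM of control (log2 fold change 1.25 with SE 0.08 and adjusted p = 5.33e-14), and the protease inhibitor gene SERPINE2 differed by 0.59.

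Detoxification genes under NRF2, a pathway that is constitutively active in A549 cells, were higher with STS_apoEV. Of the 33 NRF2 targets tested, 18 rose, 2 fell and 13 did not pass the test, with a median log2 fold change of 0.22, the lower count being 1 without STS_apoEV replicate 1 and 4 without STS_apoEV replicate 2. GPX2, a glutathione peroxidase, was at 1184, 1333 and 1233 CPM with STS_apoEV, 537, 589.8 and 751 with DDP_apoEV and 1282, 1292 and 1499 in control (log2 fold change 0.997 with SE 0.11 and adjusted p = 1.56e-06). AKR1C1, a reductase whose close paralogs can share reads, was at 2266, 2345 and 2306 CPM with STS_apoEV, 1295, 1223 and 1209.8 with DDP_apoEV and 1782, 1838 and 1974 in control (log2 fold change 0.89 with SE 0.068 and adjusted p = 2.04e-12). In GPX2 the STS_apoEV libraries overlapped control. CES1 (1.93), EPHX1 (0.91) and NQO1 (0.33) were higher. Against control 16 of the 33 were lower and 0 higher with DDP_apoEV, and 10 higher and 9 lower with STS_apoEV. Of the 17 drug efflux and platinum transport genes tested, 5 rose, 3 fell and 9 did not pass the test, with a median log2 fold change of 0.15. The called share, 47.1%, was near that of all genes. ABCC3 was higher (0.63) and LRRC8D, a channel subunit that admits cisplatin (−0.69), and the exporter gene SLC47A1 (−0.66) were lower. ABCB1, the pump P-glycoprotein, was at 1.33, 1.35 and 1.55 CPM against 0.125, 0.366 and 1.08, with control at 4.69, 4.31 and 2.71 (log2 fold change 1.42 with SE 0.46 and adjusted p = 0.0152), a call lost without DDP_apoEV replicate 1 (0.0948), DDP_apoEV replicate 2 (0.0712) or STS_apoEV replicate 3 (0.0527), and a value of 2.47 without DDP_apoEV replicate 3. Of the 5 metallothionein and zinc exporter genes tested, 1 rose, 0 fell and 4 did not pass the test, with a median log2 fold change of 0.12. The called share was 20%, under that of all genes. MT2A, raised by both vesicle types, was at 188, 205 and 225 CPM with STS_apoEV and 165, 134 and 154 with DDP_apoEV against 61.2, 52.3 and 45.1 in control (0.45), and without STS_apoEV replicate 2 the count of lower members was 1.

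Genes of cell death held called members in both arms of the BCL2 family. Of the 15 BCL2 family genes tested, 6 rose, 2 fell and 7 did not pass the test, with a median log2 fold change of 0.15. The called share was 53.3%, against 39.7% of all genes. The lower count was 1 in each limma fit of FPKM values. The death-promoting gene PMAIP1 (NOXA) was at 85.8, 96.1 and 102 CPM against 39.5, 34.0 and 34.6 (log2 fold change 1.39 with SE 0.087 and adjusted p = 2.59e-14). BBC3 (PUMA) was at 16.4, 15.4 and 16.8 against 6.502, 6.16 and 6.93 (log2 fold change 1.31 with SE 0.16 and adjusted p = 4.13e-08). BMF, of the same class, was at 4.56, 5.13 and 4.15 against 0.875, 1.22 and 0.445 (log2 fold change 2.43 with SE 0.35 and adjusted p = 1.14e-06). The DDP_apoEV libraries overlapped control for BBC3 and BMF and lay just above it for PMAIP1 (33.1, 32.8 and 33.7 CPM). The survival gene BCL2L1 was lower, at 83.2, 95.0 and 86.5 CPM against 152, 149.6 and 143 (control 130.4, 114 and 130.2; log2 fold change −0.75 with SE 0.078 and adjusted p = 2.38e-09), as was BCL2 (−1.19). Of the 25 caspase, death receptor and inhibitor genes tested, 11 rose, 3 fell and 11 did not pass the test, with a median log2 fold change of 0.20, with the inflammatory caspase gene CASP4 higher (0.73) and CASP2 (−0.68) and the TRAIL receptor gene TNFRSF10A (−0.60) lower. With limma on log2(FPKM + 1), 7 of these genes in place of 11 were higher, and 2 without a filter. The called share of the list was 56%. Of the 27 p53 targets tested, 10 rose, 3 fell and 14 did not pass the test, with a median log2 fold change of 0.21. At 48.1% the called share was near that of all genes. CDKN1A, the cell cycle inhibitor p21, was at 83.8, 93.8 and 89.1 CPM with STS_apoEV, 50.1, 61.8 and 50.9 with DDP_apoEV and 66.4, 62.8 and 66.9 in control (log2 fold change 0.71 with SE 0.086 and adjusted p = 3.83e-08). MDM2 was at 105, 103 and 99.3 against 70.1, 69.7 and 70.2 CPM (log2 fold change 0.55 with SE 0.076 and adjusted p = 5.57e-07), and TP53INP1 differed by 1.81, while the nuclease gene AEN was lower (−0.82). GDF15, a stress cytokine under p53 and ATF4, was at 200.2, 201 and 179 CPM with STS_apoEV, 95.4, 89.0 and 75.6 with DDP_apoEV and 154, 128 and 158 in control (log2 fold change 1.16 with SE 0.089 and adjusted p = 1.77e-11), with the 3 groups apart.

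**Figure D4:**
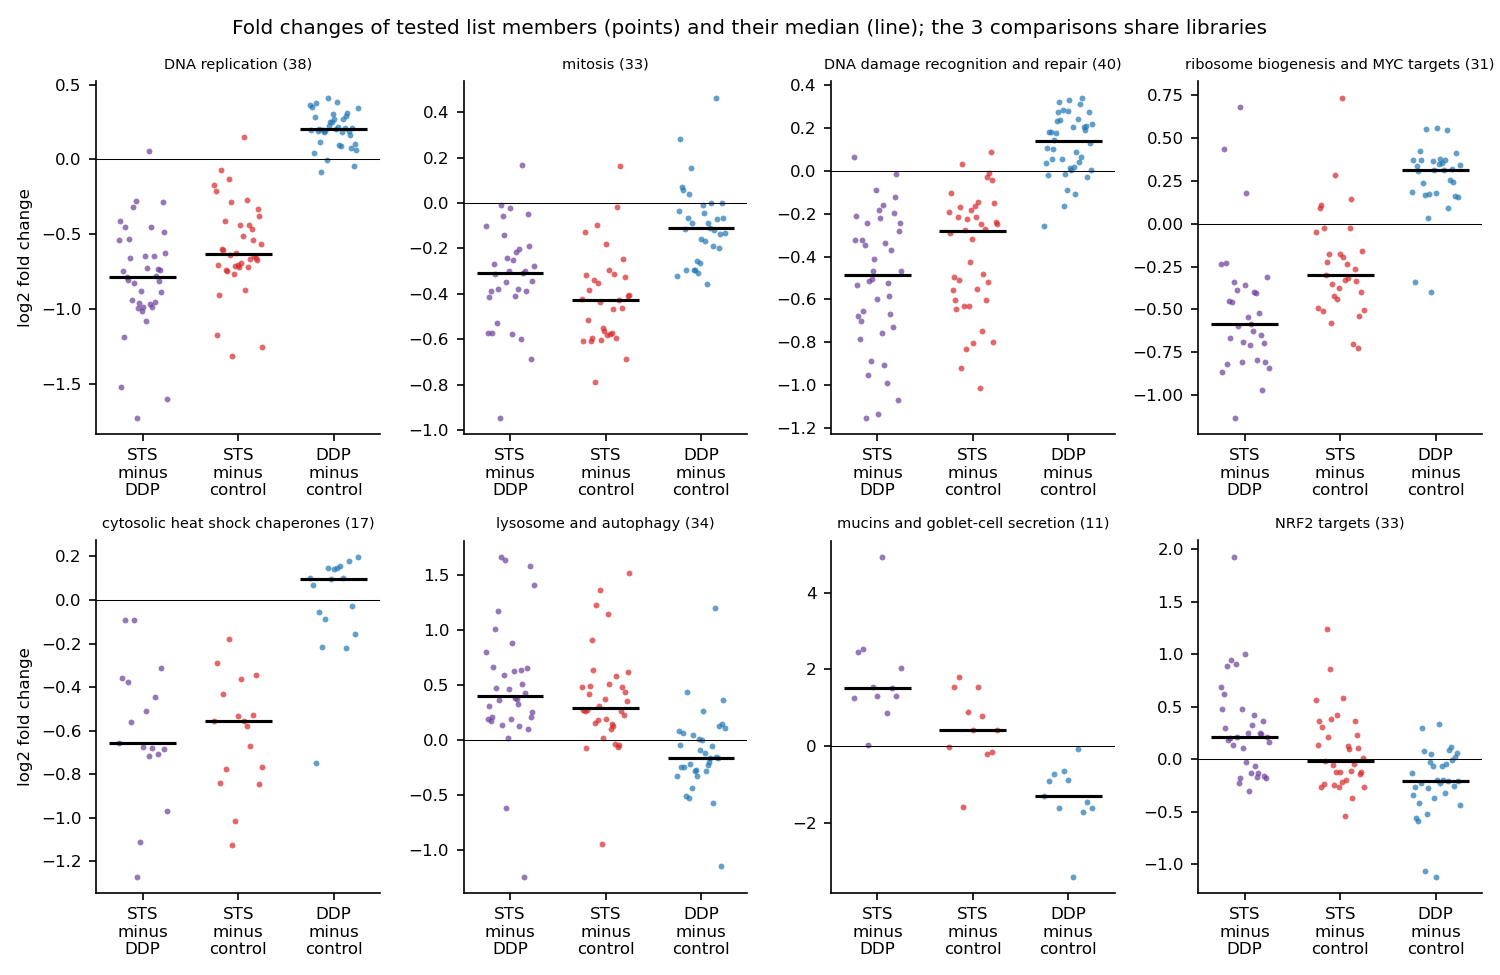
Log2 fold change (y axis) of every tested member of 8 lists between the vesicle types and between each vesicle type and control, with the list median as a line. The DNA replication median is −0.78 between the vesicle types, −0.63 for STS_apoEV against control and 0.20 for DDP_apoEV against control, and the mucin medians are 1.51, 0.42 and −1.302.

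Stress and metabolic lists held called members of either sign. The called share was 75% of the ATF4 list and 63.0% of the glycolysis and hypoxia list, against 39.7% of all genes. Of the 28 ATF4 stress response genes tested, 13 fell, 8 rose and 7 did not pass the test, with a median log2 fold change of −0.22. The 8 became 5 with limma on log2(FPKM + 1) and no filter. The transporter gene SLC7A5 was at 156, 163 and 146 CPM against 325, 391 and 289 (log2 fold change −1.11 with SE 0.091 and adjusted p = 5.54e-10), and the serine synthesis genes PSAT1 (−0.89) and PHGDH (−0.87) were lower, while ATF3 was higher (1.29). Of the 18 endoplasmic reticulum chaperone genes tested, 5 rose, 4 fell and 9 did not pass the test, with a median log2 fold change of 0.08, and the 5 became 3 without DDP_apoEV replicate 1 or STS_apoEV replicate 1, and with limma on log2(FPKM + 1) and no filter. The called share was 50%, against 39.7% of all genes. HSPA5, the chaperone BiP, was at 546, 552 and 567 CPM against 795, 803 and 723 (−0.48) and MANF was lower too (−0.40), while DNAJB9 was higher (0.54). Of the 27 glycolysis and hypoxia response genes tested, 11 fell, 6 rose and 10 did not pass the test, with a median log2 fold change of −0.16. PFKFB3, which sets the flux of glycolysis, was at 107, 100.5 and 102 CPM against 213, 203 and 215, where DDP_apoEV overlapped control (log2 fold change −1.03 with SE 0.072 and adjusted p = 2.83e-13). PFKP (−1.02), the peptide hormone gene ADM (−0.81) and GAPDH (−0.24) were lower.

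Receptor, ligand and early response lists held called members of either sign. The called share was 81.8% of the EGFR family list, 73.3% of the ERK feedback list and 93.75% of the AP-1 list, against 39.7% of all genes. Of the 11 EGFR family receptor and ligand genes tested, 5 fell, 4 rose and 2 did not pass the test, with a median log2 fold change of −0.36. The higher count was 1 in each limma fit of FPKM values. EGFR was at 67.0, 61.5 and 61.0 CPM with STS_apoEV, 106, 128 and 106 with DDP_apoEV and 83.6, 93.2 and 87.4 in control, on opposite sides of control (log2 fold change −0.85 with SE 0.085 and adjusted p = 8.62e-10). Its ligand genes AREG (−0.94) and EREG (−0.98) and the ERBB3 ligand gene NRG1 (−0.98) were lower and ERBB3 was higher (1.06). Of the 15 ERK pathway feedback genes tested, 7 rose, 4 fell and 4 did not pass the test, with a median log2 fold change of 0.35, with the phosphatase gene DUSP6 higher, at 42.4, 33.1 and 43.6 CPM against 10.3, 13.2 and 15.5 (log2 fold change 1.61 with SE 0.17 and adjusted p = 1.41e-06), and CCND1, cyclin D1 (−0.92), and EPHA2 (−0.64) lower. Of the 16 AP-1 and immediate early factors tested, 10 rose, 5 fell and 1 did not pass the test, with a median log2 fold change of 0.57. FOS was at 214, 212 and 218 CPM with STS_apoEV, 47.9, 38.5 and 74.5 with DDP_apoEV and 74.0, 71.9 and 134 in control (log2 fold change 2.00 with SE 0.34 and adjusted p = 0.00360), replicate 3 being the highest of both DDP_apoEV and control. FOSL1 was at 13.3, 10.7 and 10.5 CPM with STS_apoEV, 39.3, 30.0 and 29.2 with DDP_apoEV and 16.98, 14.3 and 12.6 in control (log2 fold change −1.51 with SE 0.14 and adjusted p = 2.33e-10), and FOSL2 differed by −0.70. The Fos family thus split, with FOS and FOSB higher and the Fos-related genes lower. Of the 29 TGF-beta and BMP pathway genes tested, 10 rose, 7 fell and 12 did not pass the test, with a median log2 fold change of 0.04. The called share was 58.6%, against 39.7% of all genes. FST and SMAD9 passed the filter on low counts only through the group where they were high. The BMP target ID2 was at 27.3, 29.9 and 32.0 CPM with STS_apoEV, 90.1, 79.0 and 86.3 with DDP_apoEV and 56.9, 47.3 and 52.3 in control, with the vesicle types on opposite sides of control (log2 fold change −1.52 with SE 0.091 and adjusted p = 1.04e-14), the ligand gene BMP6 was at 8.06, 9.65 and 9.29 against 2.25, 1.46 and 2.35 CPM (log2 fold change 2.15 with SE 0.22 and adjusted p = 1.91e-09), and the BMP modulator gene BMPER differed by 1.73.

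Peptide hormone and receptor genes rose more often than they fell. Of the 12 secretogranin, neuropeptide and peptide receptor genes tested, 6 rose, 1 fell and 5 did not pass the test, with a median log2 fold change of 1.11. The called share was 58.3%, against 39.7% of all genes. CHGB, a granin of secretory granules (chromosome 20, 5911510 to 5925353, plus strand), was at 47.6, 43.2 and 44.4 CPM with STS_apoEV, 3.63, 4.81 and 4.57 with DDP_apoEV and 7.29, 8.41 and 13.5 in control (log2 fold change 3.37 with SE 0.18 and adjusted p = 3.28e-12). AGTR1, the angiotensin II receptor, was at 11.7, 11.3 and 12.4 CPM with STS_apoEV, 0.875, 1.04 and 1.78 with DDP_apoEV and 0.456, 0.616 and 1.11 in control (log2 fold change 3.25 with SE 0.27 and adjusted p = 1.35e-11), with DDP_apoEV overlapping control. NPY1R, a neuropeptide Y receptor, was at 2.66, 1.48 and 3.03 CPM with STS_apoEV, 0.313, 0.427 and 0.191 with DDP_apoEV and 4.36, 4.10 and 3.82 in control, with the DDP_apoEV libraries the lowest (2.91), and SCG2 was raised by both, to 9.40, 9.24 and 9.22 and 3.13, 3.72 and 4.32 CPM from 1.37, 0.821 and 1.11 (1.32). Of the 14 immune checkpoint and adenosine ligand genes tested, 5 rose, 2 fell and 7 did not pass the test, with a median log2 fold change of 0.22. The called share was 50.0%, and the higher count was 3 in each limma fit of FPKM values. CD55, which blocks complement (0.80), CD276 (0.61) and VTCN1 (2.41) were higher and the CD226 ligand gene PVR was lower (−0.78). CD274, PD-L1, was at 1.89, 1.35 and 2.75 CPM against 1.63, 1.71 and 1.21 and did not pass (log2 fold change 0.39 with SE 0.39 and adjusted p = 0.450), and CD47, an inhibitor of uptake, did not either (log2 fold change −0.06 with SE 0.081 and adjusted p = 0.577). Of the 11 stemness factors tested, 4 rose, 4 fell and 3 did not pass the test, with a median log2 fold change of −0.01. The called share of this list was 72.7%. TP63 was at 14.5, 12.8 and 12.5 CPM with STS_apoEV, 1.19, 1.58 and 2.29 with DDP_apoEV and 2.54, 2.12 and 3.75 in control (log2 fold change 2.97 with SE 0.24 and adjusted p = 5.85e-12), and SOX9 differed by 1.36. SOX2, raised by both vesicle types, was at 4.77, 4.59 and 4.65 and 4.001, 5.30 and 4.83 CPM, overlapping, against 2.47, 1.03 and 0.972 in control (log2 fold change −0.01 with SE 0.26 and adjusted p = 0.972), and its sign turned with upper-quartile factors and without DDP_apoEV replicate 2 or 3. Of the 21 apoptotic cell recognition and uptake genes tested, 6 rose, 4 fell and 11 did not pass the test, with a median log2 fold change of 0.09, the 4 becoming 2 without DDP_apoEV replicate 1 or 2, or in the unfiltered limma fit of log2(FPKM + 1). The share called was 47.6%, near that of all genes. The engulfment adaptor gene GULP1 was at 197, 178 and 214 CPM against 79.3, 90.3 and 84.4 (log2 fold change 1.21 with SE 0.08 and adjusted p = 8.03e-14), and PROS1, a phosphatidylserine-binding ligand of TAM family receptors (0.79), and LRP1 (1.13) were higher as well. The receptor gene AXL, described with the YAP and TAZ targets, was among the 4 that fell and had the lowest value of the list (−1.61).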

How the data were processed

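RNA of 9 A549 libraries was sequenced (3 per group, 96 h). Per the submitters' processing notes, HISAT2 2.0.5, StringTie 1.3.3b, featureCounts 1.5.0-p3, limma and the hg38 build were used, without roles or order. The authors deposited whole-number counts per gene and FPKM values, and the labels name no strand setting. Counts were scaled with TMM factors, filtered with filterByExpr and fitted over all 9 libraries with edgeR 4.0.16 (R 4.3.3), a quasi-likelihood test with Benjamini-Hochberg adjustment over 16947 genes. CPM values use TMM-scaled totals, except the summed levels of cell markers, which use plain library totals. DESeq2 1.42.0, limma 3.58.1 on log2(FPKM + 1) and log2(FPKM + 0.1) and other settings were alternatives. In counts simulated for STS_apoEV against DDP_apoEV (16524 genes), the test called 53 of 100 genes set to a 1.5-fold change and 68 of 100 set to 2-fold. Only 200 genes were changed there, a far smaller share than was called in the data. The adjustment was therefore stricter, and these figures do not give the sensitivity of the comparison itself. STS_apoEV and DDP_apoEV libraries of the same replicate number showed no shared deviation from their group means (correlations −0.049, −0.0099 and 0.0027). Pairing of either group with control was not examined. Genes were named by rule: the 12 largest rises and falls among called, non-overlapping genes with a mean log2 CPM of at least 1, up to 3 called members of smallest p per list, and 11 set genes. A further 76 were chosen after their values were seen. The members and lists were chosen with earlier results of these data known. Promoters of 872 of 1153 list genes were matched in RefSeq. Results for 2 of the chosen genes are not reported here.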

Additional observations from a re-analysis of the deposited data

How the results depend on the processing

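The 6721 called genes became 5856 to 6753 when 1 of the 9 libraries was left out, 6371 with DESeq2, 6706 with upper-quartile factors, 6545 with the 6 vesicle libraries alone and 6429 with a replicate block, although replicate numbers showed no pairing between the vesicle groups and were not examined against control. The 2-fold count of 1481 was 1446 to 1550 in those left-out fits. With limma on log2(FPKM + 1) the 2-fold count was 367 (255 higher, 112 lower), with log2(FPKM + 0.1) 690.0 (431 higher, 259 lower) and with log2(FPKM + 1) and no filter 383 (266 higher, 117 lower). The last of these called 4352 genes, 2063 of them higher. The pseudocount pulls low genes toward equality, and the filter on FPKM tests fewer of them. Of the 234 called genes chosen for naming, 231 to 233 kept the call and its direction in the left-out fits, 234 with DESeq2, 234 with the block and 217 with log2(FPKM + 1) and no filter, where CEACAM5, VIM, ABCB1, BCL2 and CD14 were among the 17 lost. SOX2, which did not pass, moved from −0.01 to 0.018 with upper-quartile factors, and from −0.12 to 0.064 over the left-out libraries, including 0.00053 without DDP_apoEV replicate 3. With 3 libraries a group and a floor of 3 counts, fold changes of genes near 1 CPM carry wide errors.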
